A study of Mus musculus with 68 samples.

Results

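The clustered replication-dependent histone genes were taken as every gene symbol in the count tables that begins with Hist1h, Hist2h, Hist3h or Hist4h, which gave 68 of 24059 symbols. They comprised 6 genes for the linker histone H1, 18 for H2A, 19 for H2B, 12 for H3 and 13 for H4. Of these, 54 belong to the Hist1 cluster on chromosome 13, 10 to Hist2 on chromosome 3, 3 to Hist3 on chromosome 11, and Hist4h4 stands alone on chromosome 6. One of them, Hist3h2bb-ps, is annotated as a pseudogene. Counts were read in bone marrow erythroid cells of mice, enriched by flow cytometry, in 68 RNA-seq libraries. A stage series of 38 libraries held 8 gates named BFU-E (3 libraries), CFU-E (5), ERY-I (7), ERY-II (4), ERY-III (4), ERY-IV (4), ERY-V (7) and ERY-VI (4). The source labels call ERY-I proerythroblasts, ERY-II basophilic, ERY-III polychromatic and ERY-IV orthochromatic erythroblasts, ERY-V reticulocytes and ERY-VI red blood cells. A knockout series of 30 libraries held 3 wild-type (WT) and 3 GS-KO libraries in each of 5 gates. The first 2 were again BFU-E and CFU-E, and the other 3 covered merged later gates. The source labels pair ERY-I-II with proerythroblasts and basophilic cells, ERY-III-VI with polychromatic and orthochromatic cells, and ERY-V-VI with reticulocytes and red blood cells. The labels do not spell out GS. It was taken here as glutamine synthetase, encoded by Glul, and no promoter, Cre line, strain, age or sex is given in the sources used here. They also do not say whether replicate libraries came from separate mice, so the p-values here reflect how libraries of a group vary, and that variation may be technical.

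Replication-dependent histones package newly made DNA. H2A, H2B, H3 and H4 form the nucleosome core, and H1 binds the linker DNA where it enters and leaves the core. Their mRNAs are made mainly in S phase, usually lack introns, and end in a conserved stem-loop instead of a poly(A) tail. The stem-loop is bound by SLBP and is cut by the U7 snRNP, and NPAT drives transcription of the genes in histone locus bodies. In erythropoiesis the last divisions run alongside hemoglobin synthesis, after which the nucleus condenses and is expelled. The libraries were made from total RNA, so that mRNAs without a poly(A) tail could be read.

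The stem-loop was searched in the annotated transcripts (GENCODE vM21, GRCm38) by its 16-base histone consensus, which leaves a few stem positions free to be either pyrimidine or either purine, on the transcript strand. It was found in 46 of the 68 genes, 67.6%, against 86 of 55341 gene names in the whole annotation. By class it was found in 4 of 6 H1, 11 of 18 H2A, 10 of 19 H2B, 9 of 12 H3 and 12 of 13 H4 genes. Many of the other gene models stop at or near the stop codon, so a missing match says only that the letters are not in the annotated transcript. The following are printed because they carry the difference between the classes and belong to genes the results turn on, with the 16-base stem-loop in capitals and 5 flanking bases on either side.
Hist1h1c: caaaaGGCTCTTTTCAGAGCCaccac
Hist2h2ac: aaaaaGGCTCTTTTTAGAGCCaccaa
Hist1h2bb: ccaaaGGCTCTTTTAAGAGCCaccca
Hist3h2ba: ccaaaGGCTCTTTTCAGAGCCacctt
Hist1h3d: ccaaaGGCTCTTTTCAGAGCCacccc
Hist1h4d: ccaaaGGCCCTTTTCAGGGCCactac
Hist1h4b: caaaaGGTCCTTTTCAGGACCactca
Hist2h4: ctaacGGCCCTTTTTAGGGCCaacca
H2afx: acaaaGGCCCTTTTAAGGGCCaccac
The stem began GGCTC in all 34 matching H1, H2A, H2B and H3 genes. In the H4 genes it began GGCCC in 10 and GGTCC in 2 of the 12 that matched. Among 11 replacement variant genes, whose mRNAs are mostly polyadenylated and made outside S phase, only H2afx, the DNA damage-linked H2A variant, held a match.

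Promoters also differed by class. RefSeq windows of the GRCm38.p6 build were found for 61 of the 68 genes, giving 62 windows, and the 250 bases before the start were searched on both strands for 4 motifs. CCAAT, the NF-Y box, was in all 6 H1, all 17 H2A and all 17 H2B windows, in 8 of 10 H3 windows and in 3 of 12 H4 windows, against 33.8% of all 32851 windows. ATTTGCAT, the octamer, was in 7 of 17 H2A and 7 of 17 H2B windows and in no H1, H3 or H4 window, against 1.60% of all windows. AAACACA, the H1 box, was in 5 of 6 H1 windows, 2 of 17 H2A and 2 of 17 H2B windows, against 6.25%. TATAAA was in 29 of 62 windows, 46.8%, against 12.4%. None of the 4 motifs contains another, though TATAAA and AAACACA can share end bases, and a match is a description of the sequence, not of binding. The 150 bases before the start are given for the most abundant H1, H2B and H4 genes, with the motifs found there in capitals. All 3 are on the plus strand. The windows are chr13:23738657-23738806 for Hist1h1c, chr3:96269550-96269699 for Hist2h2bb and chr13:23581418-23581567 for Hist1h4d.
Hist1h1c: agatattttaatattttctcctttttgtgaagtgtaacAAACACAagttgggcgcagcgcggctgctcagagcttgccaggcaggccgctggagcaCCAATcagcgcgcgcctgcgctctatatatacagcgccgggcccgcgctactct
Hist2h2bb: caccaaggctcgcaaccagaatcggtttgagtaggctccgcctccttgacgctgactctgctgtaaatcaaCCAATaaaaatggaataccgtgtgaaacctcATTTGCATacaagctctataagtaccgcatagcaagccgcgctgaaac
Hist1h4d: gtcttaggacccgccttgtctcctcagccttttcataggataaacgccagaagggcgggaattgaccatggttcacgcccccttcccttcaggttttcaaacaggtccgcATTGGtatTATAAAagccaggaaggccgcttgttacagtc
In Hist1h1c the capitals are AAACACA and CCAAT, in Hist2h2bb CCAAT and ATTTGCAT, and in Hist1h4d CCAAT read on the other strand and TATAAA.

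Stage series libraries held between 1630863 and 11472763 counts, and knockout series libraries between 3131142 and 15806844. Levels are given as CPM, a gene's counts scaled to the same total in every library. Of the erythroid markers tested, 9 rose and 1 fell of 13 from CFU-E to ERY-I and 11 rose and 1 fell of 13 from ERY-I to ERY-II. From ERY-II to ERY-III edgeR called 0 of 11, with 0 at an unadjusted p under 0.05, and from ERY-IV to ERY-V 1 rose and 1 fell of 12. The progenitor receptor Kit fell from 946 CPM in BFU-E to 3.16 in ERY-II, and Alas2, the first enzyme of erythroid heme synthesis, was at 7.28 CPM in BFU-E and 31061 in ERY-VI (group means). The stage libraries fell into 2 sets, 12 with Y-linked transcripts and 26 with Xist. The first set comprised all 3 BFU-E libraries and the libraries numbered 1 to 3 in the CFU-E, ERY-I and ERY-V gates. Within a gate, the chi-square per degree of freedom between pairs of libraries was 72.1 to 228 across the sets, 7.63 to 98.1 within the Xist set and 1.45 to 8.59 within the Y-linked set. All 30 knockout series libraries held Y-linked transcripts, and within a group they differed by only 1.29 to 6.26 per degree of freedom, so its p-values rest on a very small spread between libraries. Summed neutrophil markers reached 13450 to 13866 CPM in ERY-I replicates 1 to 3, where ERY-I replicate 5 had 1260 and the remaining ERY-I libraries at most 45.9. They were at 2712 to 2755 CPM in ERY-V replicates 1 to 3, 3389 in ERY-V replicate 5, 2075 in ERY-II replicate 2 and 1183 in ERY-III replicate 2. Their part in the stage results was not tested.

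Of the 68 genes, 9 had fewer than 10 counts over all 68 libraries together. Hist1h2ao, Hist1h2ap, Hist1h2bq, Hist1h2br, Hist2h2aa1, Hist2h2aa2 and Hist2h3c2 had 0, Hist2h3c1 had 2 and Hist1h4m had 5. Among these, 5 share over 90% of their 50-base stretches with another gene, against 3 of the 59 genes with 10 or more counts. Those 3 are Hist1h2ah (90.7% shared) and Hist1h2ai (90.1%), both mostly with Hist1h2ad, and Hist1h3h (93.9%), mostly with Hist1h3i. How reads that match several genes were counted is not given in the sources used here, so the values of near-identical copies are uncertain. Hist1h4n (85.6% shared, mostly with Hist1h4m), Hist1h2an (85.8%, Hist1h2ah), Hist1h2bn (86.4%, Hist1h2bk) and Hist1h3i (87.6%, Hist1h3h) are in the same position. That limit holds wherever these genes are named below.

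Histone mRNA rose to a maximum in ERY-III and had nearly gone by ERY-VI. The 68 genes together took 9142 ± 81.6 CPM in BFU-E (SD, n = 3), 20830 ± 10460 in CFU-E (n = 5) and 34960 ± 5180 in ERY-I (n = 7). After a mean of 28768 ± 5769 in ERY-II (n = 4) they took 60511 ± 7368 in ERY-III (n = 4). The sum was then 22753 ± 8094 CPM in ERY-IV (n = 4), 4060 ± 1793 in ERY-V (n = 7) and 622 ± 418 in ERY-VI (n = 4). The ERY-III libraries ran from 54788 to 70950 CPM, above every library of every other gate. In bulk RNA, fewer cells of a type and less RNA per cell cannot be told apart. Globin transcripts also take counts, from a mean of 0.00528% in BFU-E to 64.0% in ERY-VI. As a share of the counts that were not globin, the histone sum from ERY-III on was 80012, 33186, 6163 and 1718 CPM, in the same order. On that scale the ERY-II libraries ran from 34620 to 45050 CPM, inside the ERY-I range of 31112 to 48626.

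**Figure D1:**
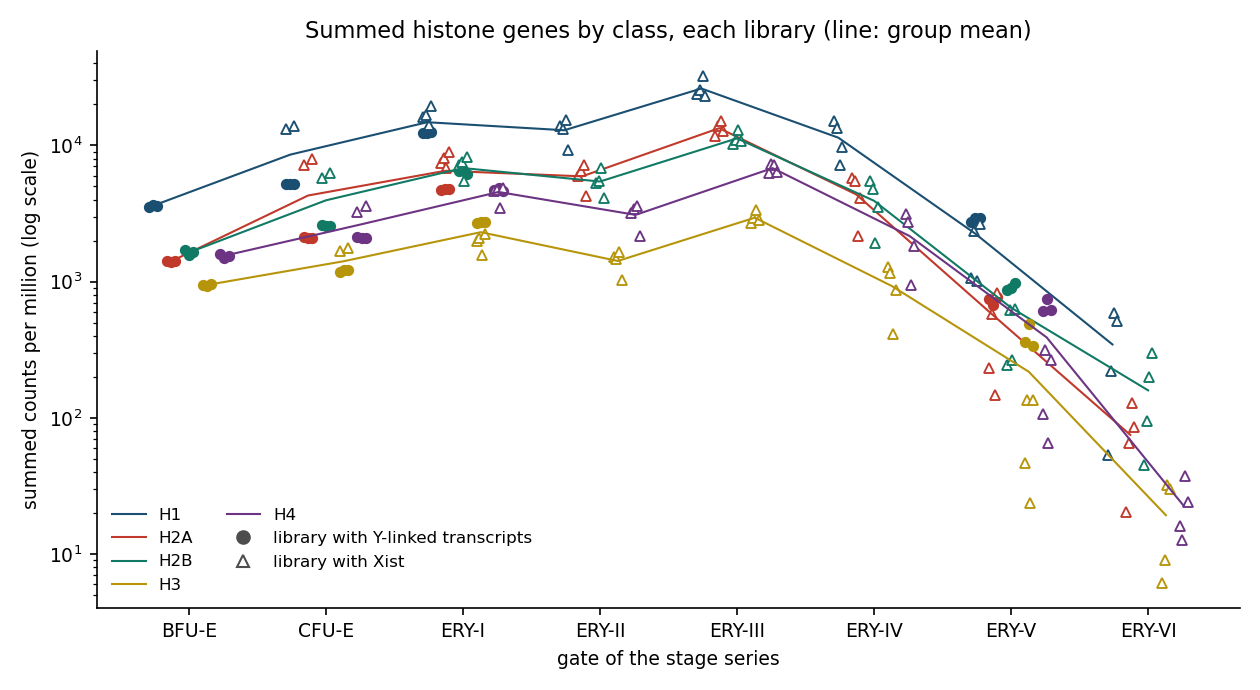
Summed CPM of the H1, H2A, H2B, H3 and H4 genes (vertical log axis) in each stage series library by gate; lines join group means, circles are libraries with Y-linked transcripts and triangles libraries with Xist. All 5 classes have their highest mean in ERY-III, H1 at 26135 CPM and H3 at 2945, and in CFU-E the triangles lie above the circles in every class.

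Nearly every gene followed this course. Of the 57 genes whose highest group mean was at least 5 CPM, 54 had that mean in ERY-III. The other 3, Hist1h2an, Hist1h2bk and Hist1h3e, had it in ERY-I. For these 3 the difference was small, as for Hist1h3e, an H3 gene, with 394 CPM in ERY-I and 370 in ERY-III. The highest group mean was a median of 6.74-fold above BFU-E over the 57 genes. That fold ran from 1.57 for Hist2h2ab to 118 for the H2B gene Hist3h2ba. H2A genes had the largest median, 13.1-fold, followed by H2B at 7.51, H1 at 6.65, H3 at 4.90 and H4 at 4.59. Single genes crossed that order, as Hist2h4 rose 17.6-fold and Hist1h3c 10.1-fold, and the difference between the classes was not tested. All BFU-E libraries held Y-linked transcripts and all ERY-III libraries held Xist, so gate and set cannot be told apart in most of these folds. Within CFU-E, Xist libraries exceeded the others 3.60-fold for the H2A sum, 2.60 for H1, 2.32 for H2B, 1.61 for H4 and 1.43 for H3. In WT of the knockout series, ERY-III-VI over BFU-E had medians of 6.29 for H1, 6.84 for H2A, 6.40 for H2B, 6.33 for H3 and 5.60 for H4. All libraries of that series held Y-linked transcripts.

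**Figure D2:**
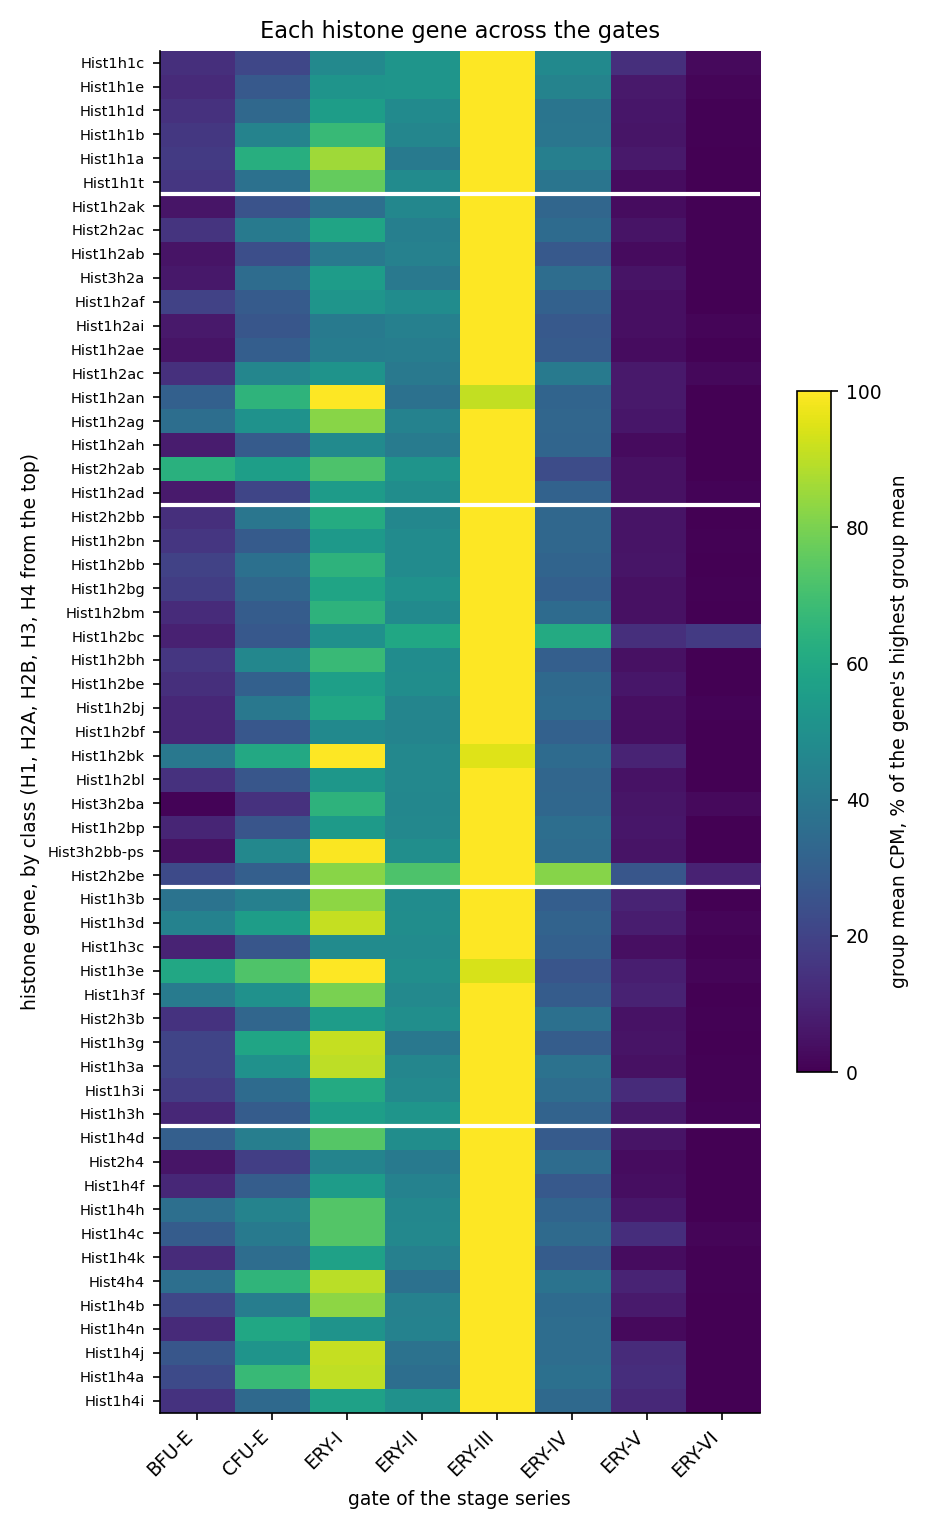
Mean CPM of each of the 57 histone genes in each gate, as a percentage of that gene's highest group mean (colour), with genes in rows ordered by class and gates in columns. The ERY-III column is brightest in 54 rows, and in the ERY-VI column Hist1h2bc (17.1% of its ERY-III mean) and Hist2h2be (9.66%) stand out.

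The H1 genes supplied the largest share of counts. H1 made up 39.5% of histone counts in BFU-E, 43.1% in ERY-III and 57.4 ± 6.01% in ERY-V (SD, n = 7). BFU-E and ERY-III libraries belong to different library sets and ERY-V holds both, so gate and set are mixed in this rise. In WT of the knockout series, all with Y-linked transcripts, H1 made up 36.8% in BFU-E and 41.5% in ERY-V-VI. The shares are not corrected for gene length or shared sequence, whose part was not tested. H1 coding sequences are 627 to 669 bases, against 378 for Hist2h2bb. Levels per kilobase of coding sequence leave untranslated and shared sequence uncorrected, here and in the other classes below. The longest annotated transcript has 741 bases for Hist1h1a, 1560 for Hist1h1c and 7425 for Hist1h1d. On that scale Hist1h1c reached 12266 ± 1212 CPM per kb and Hist1h1e 11384 ± 1322 in ERY-III (n = 4), a difference within the spread. Hist1h1d, Hist1h1b and Hist1h1a followed at 7107 ± 1360, 5272 ± 1482 and 4079 ± 1421 CPM per kb, of which Hist1h1b and Hist1h1a differed by less than either SD. The testis-type Hist1h1t was at 15.2 ± 8.35 CPM per kb.

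Hist1h1c (chr13:23738808-23740367, plus strand) encodes the linker histone also called H1.2. Its BFU-E libraries had 1017, 1051 and 1067 CPM, and its CFU-E libraries 1087, 1084, 1086, 2499 and 2547. ERY-I libraries ran from 3014 to 4141 CPM with a median of 3878, and the ERY-II libraries had 4144, 4300, 4976 and 2799. The last 2 CFU-E libraries, those with Xist, were above the other 3, and all CFU-E libraries were below all ERY-I libraries. ERY-III libraries had 7738, 7767, 8792 and 6909 CPM, and ERY-IV libraries 4872, 4313, 2681 and 2917. ERY-V libraries ran from 460 to 1578 CPM with a median of 959, and ERY-VI libraries had 20, 80.1, 357 and 285. From ERY-III to ERY-VI each gate lay below the one before, with no overlap.

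Hist1h1a (chr13:23763666-23764406, plus strand), another somatic H1 gene, was high earlier. Its BFU-E libraries had 444, 432 and 437 CPM, and its CFU-E libraries 919, 922, 937, 2641 and 2764. From ERY-I to ERY-III its gate means were 2230, 1078 and 2606 CPM, so that ERY-I and ERY-III were close. Its share of H1 counts was 18.6% in CFU-E and 8.39% in ERY-II, whereas that of Hist1h1c was 19.9% in CFU-E and 31.3% in ERY-II. Group means of Hist1h1e, Hist1h1d and Hist1h1b in ERY-III were 7480, 4712 and 3527 CPM, and in ERY-VI 98.6, 29.5 and 24.7.

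Among H2A genes Hist1h2ak (chr13:21753435-21753827, minus strand) was the highest per length in ERY-III, at 9181 ± 797 CPM per kb, ahead of Hist2h2ac at 6167 ± 1173 and Hist1h2ab at 4850 ± 366. Its BFU-E libraries had 200, 189 and 199 CPM and its CFU-E libraries 245, 239, 234, 1882 and 1983. The ERY-II libraries had 1723, 1819, 2023 and 1056 CPM, and the ERY-III libraries 3492, 3703, 3930 and 3199. The split inside CFU-E between libraries with Y-linked transcripts and libraries with Xist was wider for this gene than for Hist1h1c. For the H2A sum the Xist libraries were 3.60-fold above the others in CFU-E, against 2.60-fold for H1, 2.32 for H2B, 1.61 for H4 and 1.43 for H3.

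Hist2h2bb (chr3:96269752-96270132, plus strand) was the main H2B gene, at 10094 ± 1338 CPM per kb in ERY-III, against 3692 ± 450 for Hist1h2bn and 2859 ± 212 for Hist1h2bb. Its BFU-E libraries had 525, 494 and 505 CPM, its ERY-III libraries 3362, 3455, 4446 and 4001, and its ERY-VI libraries 5.89, 24.1, 14 and 14.1. It held between 29.2% and 39.2% of H2B counts from BFU-E to ERY-V (group means) and 12.5% in ERY-VI. Hist3h2ba (chr11:58948920-58949533, plus strand), an H2B gene of the small Hist3 cluster, started near 0. Its BFU-E libraries had 1.83, 1.59 and 1.66 CPM, its CFU-E libraries 11.8, 10, 13.8, 40.4 and 65.6, and its ERY-III libraries 141, 195, 262 and 200. No BFU-E library overlapped a later gate up to ERY-V, where the lowest library had 4.04 CPM.

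Hist1h3b, the H3 gene with the highest mean in ERY-III, had 152, 155 and 169 CPM in BFU-E, 222, 216, 221 and 149 in ERY-II and 400, 423, 452 and 385 in ERY-III. Its CFU-E libraries had 197, 209, 213, 146 and 142 CPM, so the 2 Xist libraries were the lowest, the reverse of Hist1h2ak. Hist1h3b, Hist1h3d and Hist1h3c stood at 1017 ± 70.8, 1008 ± 73.8 and 980 ± 72 CPM per kb in ERY-III, within the spread of each other. Hist1h4d (chr13:23581598-23582735, plus strand) was the main H4 gene, at 8696 ± 798 CPM per kb, ahead of Hist2h4 at 4000 ± 446. Its BFU-E libraries had 830, 789 and 828 CPM, its CFU-E libraries 1067, 1063, 1075, 1211 and 1319, its ERY-III libraries 2373, 2894, 2874 and 2607, and its ERY-VI libraries 5.89, 0.473, 15.1 and 3.68. The H3 share of histone counts was 10.3% in BFU-E, 4.88% in ERY-III and 3.25% in ERY-VI, and the H4 share 16.9%, 11.3% and 5.24%. All BFU-E libraries held Y-linked transcripts and all ERY-III and ERY-VI libraries Xist, so gate and set cannot be told apart here. Within CFU-E, Xist libraries exceeded the others 2.44-fold for the histone sum, but 1.43-fold for H3 and 1.61-fold for H4. In WT of the knockout series, all with Y-linked transcripts, the H3 share was 9.94% in BFU-E and 8.20% in ERY-III-VI. The H4 share there was 19.4% and 15.96%.

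Each gate was compared with the one before it by edgeR's quasi-likelihood test after TMM scaling, with Benjamini-Hochberg adjustment over all genes tested and a threshold of 0.05. From BFU-E to CFU-E, 33 of 57 tested histone genes rose and none fell, where 37.3% of all genes changed and 18.2% rose. The median log2 change was 1.43, against -0.01 over all genes. They were 4 of 6 H1, 5 of 13 H2A, 8 of 16 H2B, 6 of 10 H3 and 10 of 12 H4 genes. Hist3h2ba rose by a log2 of 4.21 ± 0.85 (SE; adjusted p = 0.0055), Hist1h3g, an H3 gene, by 1.69 ± 0.37 (0.0083) and Hist1h2an, an H2A gene, by 1.22 ± 0.11 (0.00012). The value of Hist1h2an is uncertain because of shared sequence. Hist3h2a, the H2A partner of the Hist3 cluster, rose by 2.63 ± 0.73 (0.022), Hist1h1a by 2.08 ± 0.51 (0.013) and Hist2h4 by 1.89 ± 0.56 (0.028), and these 3 calls were lost without any 1 of the 3 BFU-E libraries.

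The size of this first rise depended on the library set. The histone sum rose 2.28-fold over all libraries and 1.45-fold within the libraries with Y-linked transcripts, where CFU-E replicates 1 to 3 averaged 13217 CPM and replicates 4 and 5 had 31034 and 33465. Within that set 54 histone genes rose and 1 fell, where 33% of all genes rose. Without BFU-E replicate 1, 2 or 3 the count over all libraries fell to 13, 12 and 12. With the triplicates of that set each summed to 1 library, edgeR called 0 and BFU-E held a single library. DESeq2 on the separate libraries called 51, and 52 had an unadjusted p under 0.05 in edgeR. The 3 BFU-E libraries are all in the Y-linked set, so the Xist set gives no value for this step.

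From CFU-E to ERY-I, 45 of 57 genes rose and none fell (46.4% of all genes changed, 25.4% rose), with a median log2 change of 1.16 against 0.05 over all genes. All 10 H3 genes tested and 14 of 16 H2B genes rose, beside 5 of 6 H1, 6 of 13 H2A and 10 of 12 H4 genes. Hist1h1c rose by 1.51 ± 0.31 (adjusted p = 0.0018), Hist3h2ba by 2.57 ± 0.50 (0.0013) and Hist2h2be by 1.84 ± 0.22 (5.7e-05). Hist1h2ad rose by 1.82 ± 0.49 (0.0092), Hist2h4 by 1.67 ± 0.43 (0.0071) and Hist1h3h by 1.34 ± 0.39 (0.014), although the CPM of their libraries overlapped between the gates. Of the 57 genes, 8 had no overlap in CPM, against 32.9% of all genes. With the triplicates of the Y-linked set summed to 1 library each, 21 were called. The size of this rise differed between the sets. In the Y-linked set the histone sum was 13166 to 13300 CPM in CFU-E and 30803 to 31321 in ERY-I. In the Xist set it was 31034 and 33465 in CFU-E and 31389 to 43766 in ERY-I, and the gates overlapped. The ERY-I libraries of the Y-linked set also held 13450 to 13866 CPM of neutrophil markers, whose part was not tested.

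From ERY-I to ERY-II the direction depended on the scaling. With TMM, 40 of 57 genes rose and none fell (45.3% of all genes changed, 20.2% rose and 25.1% fell). The median log2 change was 0.94 against -0.35 over all genes. By library totals, 0 rose and 22 fell, where 67.7% of all genes fell, with a median of -0.40 against -1.67 over all genes. The histone median lay above that of all genes on both scales. Scaling shifts all genes nearly alike, so this is not a separate check. With TMM the log2 change was 1.60 ± 0.44 for Hist1h2bc (adjusted p = 0.011), 1.59 ± 0.41 for Hist1h2ak (0.0086), 1.48 ± 0.22 for Hist1h1c (0.00034), 1.31 ± 0.20 for Hist1h3c (0.00045) and 1.19 ± 0.40 for Hist1h4i (0.029). The direction turned by library totals for Hist1h4i (-0.17) and for Hist1h2bn, where a rise of 1.15 ± 0.15 (0.00014) became -0.16. Without ERY-II replicate 3 the count was 26. Globin transcripts took 28.9% of ERY-II counts.

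From ERY-II to ERY-III the histone genes were most of the calls when libraries were not paired by replicate number. By edgeR, 14 of 7574 genes were called, 0.185%, all of them higher, and 12 of the 14 were histone genes. The other 2 were Chtf18, which encodes part of a clamp loader used in replication, and Siva1, a p53-linked apoptosis gene, both named after their values were seen. The median log2 change of the 57 histone genes was 0.93, against -0.02 over all genes, and 52 of them had no overlap in CPM between the gates, against 5.22% of all genes. Libraries with the same replicate number deviated together here (lowest correlation 0.52). With the replicate as a block, 55 of the 57 rose, all but Hist1h1t and Hist2h2be. Under that block 368 of all 7574 genes rose (4.86%) and 410 fell (5.41%), so histone genes were a small part of those calls. The count depended on the setting. With any 1 of the 8 libraries left out edgeR called 0, as it did by library totals or with RLE size factors, while DESeq2 called 49 and 53 had an unadjusted p under 0.05 in edgeR.

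The genes called from ERY-II to ERY-III were 2 of 13 H2A, 2 of 16 H2B, 2 of 10 H3 and 6 of 12 H4 genes and 0 of 6 H1 genes. Hist1h4j rose by 1.26 ± 0.18 (adjusted p = 0.044), Hist1h2ah by 1.13 ± 0.18 (0.049), Hist1h3f by 0.95 ± 0.12 (0.043) and Hist1h2bn by 0.90 ± 0.13 (0.044). Hist1h1c changed by 0.79 ± 0.19 (0.13), and by 0.79 ± 0.17 (0.0056) with the replicate block. Hist2h4 is an example of the separation in CPM, with 560, 601, 523 and 362 in ERY-II and 1202, 1388, 1291 and 1064 in ERY-III. The histone sum rose 2.10-fold, and every ERY-III library was above every ERY-II library.

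From ERY-III to ERY-IV, 43 of 57 genes fell and none rose (13.6% of all genes changed, 3.29% fell), with a median log2 change of -1.07 against -0.07 over all genes. The H2A, H2B and H4 genes fell most often, 11 of 13, 13 of 16 and 11 of 12, against 7 of 10 H3 genes and 1 of 6 H1 genes. The difference between the classes was not tested. Hist2h2ab changed by -1.59 ± 0.27 (adjusted p = 0.0051), Hist1h4f by -1.36 ± 0.26 (0.0077), Hist1h3e by -1.30 ± 0.19 (0.0024) and Hist1h2bh by -1.24 ± 0.27 (0.014). The 1 H1 gene called, Hist1h1d, changed by -0.85 ± 0.24 (0.041), and that call was lost without any 1 of ERY-III replicates 1, 3 and 4 or any 1 of the 4 ERY-IV libraries. Hist1h1c changed by -0.54 ± 0.21 (0.12). Without ERY-III replicate 3 the count was 22 and without replicate 4 it was 28. In CPM, 54 of the 57 genes had no overlap, against 25.7% of all genes, and the sum was 2.66-fold lower.

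From ERY-IV to ERY-V, 37 of 56 genes fell and none rose (8.83% of all genes changed, 2.33% fell), with a median of -1.86 against 0.06. All 5 H1 genes tested fell, with 10 of 13 H2A, 12 of 16 H2B, 3 of 10 H3 and 7 of 12 H4 genes. Hist1h4n changed by -2.71 ± 0.45 (adjusted p = 0.0028), Hist1h2ah by -2.69 ± 0.59 (0.012), Hist2h4 by -2.59 ± 0.32 (0.0015), Hist1h3a by -2.37 ± 0.32 (0.0015), Hist1h2bf by -2.27 ± 0.41 (0.0045) and Hist1h1b by -1.93 ± 0.31 (0.0027). Hist1h1c changed by -0.95 ± 0.23 (0.020), a call that was lost without ERY-IV replicate 1 or 4. The sum fell 5.60-fold. In the same step 7 of 9 neutrophil markers rose, and their part in the histone result was not tested.

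From ERY-V to ERY-VI, where few reads were left, 11 of 50 genes fell and none rose (7.83% of all genes changed, 4.51% fell and 3.32% rose), with a median of -1.76 against -0.34. Hist1h1a changed by -2.84 ± 0.69 (adjusted p = 0.020) and Hist2h2bb by -1.86 ± 0.41 (0.013). Without any 1 of ERY-V replicates 1, 2, 3 and 5 or ERY-VI replicate 1 the count was 6, and without ERY-V replicate 7 or ERY-VI replicate 4 it was 7. By library totals it was 40. All ERY-VI libraries are in the Xist set, and within that set edgeR called 0 of 30 tested. Over all libraries DESeq2 called 21, and 30 had an unadjusted p under 0.05 in edgeR. The sum was 6.53-fold lower without overlap, though by single genes 20 of the 50 had no overlap in CPM, against 23.2% of all genes. The class sums were 6.49-fold lower for H1, 7.55 for H2A and 17.2 for H4, and 4.04 for H2B and 11.3 for H3, whose libraries overlapped.

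A few genes kept a larger share of their ERY-III mean in ERY-VI than the rest. Of the ERY-III mean, a median of 5.38% was left in ERY-V (2.57% to 26.7% over 57 genes) and 0.381% in ERY-VI. The largest shares left in ERY-VI were 17.1% for Hist1h2bc, 9.66% for Hist2h2be, 2.54% for Hist3h2ba and 2.38% for Hist1h1c, and these genes were picked out after their values were seen. Hist1h2bc (chr13:23684199-23692908, plus strand) encodes an H2B and has an annotated transcript of 1156 bases for 378 coding bases. Hist2h2be (chr3:96221119-96223738, plus strand) encodes another H2B and has a transcript of 2620 bases for the same coding length. Neither holds the stem-loop in its annotated transcripts.

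Hist1h2bc had 558, 558, 776 and 613 CPM in the ERY-III libraries and 398, 418, 332 and 381 in ERY-IV. ERY-V libraries ran from 41.6 to 150 CPM with a median of 56.8, and ERY-VI libraries had 25.3, 40.7, 118 and 246. The last 2 gates overlapped, unlike those of Hist1h1c. Its log2 change was -0.12 ± 0.25 from ERY-III to ERY-IV (adjusted p = 0.79, and 0.021 on the log2 scale without ERY-III replicate 4) and 1.53 ± 0.58 from ERY-V to ERY-VI (0.10). Its share of H2B counts was 5.54% in ERY-III and 11.0% in ERY-IV. It reached 19.3% in ERY-V (4.63% to 56.1%) and 60.2 ± 16.7% in ERY-VI (42.6% to 82.9%). All ERY-III, ERY-IV and ERY-VI libraries held Xist and ERY-V held both sets, so gate and set are mixed in the ERY-V values.

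Hist2h2be was at a far lower level. Its ERY-III libraries had 28.1, 30.1, 34.5 and 23.8 CPM and its ERY-IV libraries 26.1, 33.1, 20.3 and 16. ERY-V libraries ran from 0 to 14.9 CPM with a median of 9.91, and ERY-VI libraries had 1.18, 6.15, 3.92 and 0. The share of Hist2h2be left in ERY-VI thus rests on few reads. ERY-III and ERY-IV overlapped, with a log2 change of 0.27 ± 0.20 (adjusted p = 0.42), which was -0.29 by library totals. Over the 39 genes with an annotated stem-loop, the share left in ERY-VI had a median of 0.336% and a maximum of 2.54%. Over the 18 without it the median was 0.576% and the maximum 17.1%, and without Hist1h2bc and Hist2h2be these were 0.453% and 1.41%. Hist1h1c, which has the stem-loop, made up 30.1% of H1 counts in ERY-III, 47.5 ± 7.66% in ERY-V and 47.3 ± 12.2% in ERY-VI.

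**Figure D3:**
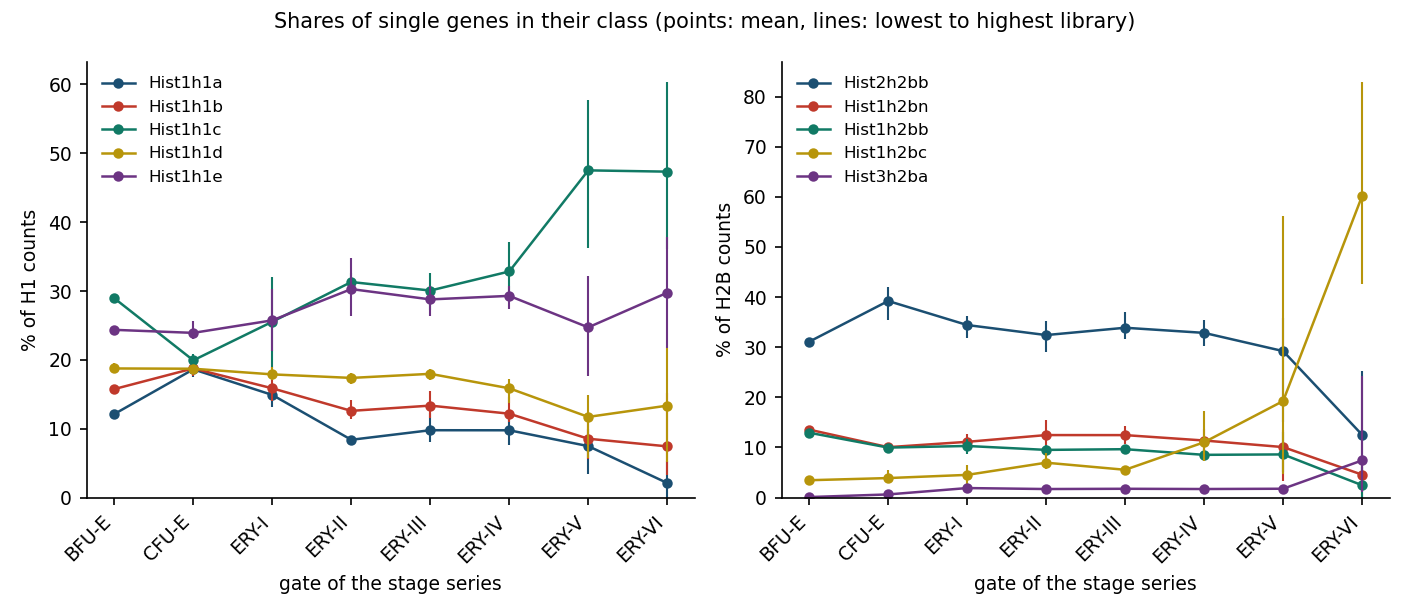
Percentage of H1 counts (left) and of H2B counts (right) taken by single genes in each gate of the stage series; points are group means and vertical lines run from the lowest to the highest library. Hist1h2bc goes from 5.54% of H2B counts in ERY-III to 60.2% in ERY-VI, and Hist1h1c from 30.1% to 47.3% of H1 counts.

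Slbp, Npat and the summed DNA replication genes had their highest mean in ERY-I and not in ERY-III. Slbp, the stem-loop binding protein, had group means of 140, 278, 448, 176, 323, 208, 52.5 and 3.83 CPM along the 8 gates. It rose from BFU-E to CFU-E by a log2 of 1.14 ± 0.20 (adjusted p = 0.0026). Npat, the transcriptional coactivator of histone genes, averaged 123 CPM in ERY-I and 71.1 in ERY-III. Of 21 genes for histone transcription and 3′ processing, 7 rose and 1 fell from BFU-E to CFU-E, 7 rose and 5 fell of 20 from CFU-E to ERY-I, and 0 rose and 8 fell of 20 from ERY-I to ERY-II. From ERY-II to ERY-III edgeR called 0 of 17, with 9 at an unadjusted p under 0.05. The summed DNA replication genes averaged 12945, 4518 and 7595 CPM in the gates from ERY-I to ERY-III. Of these 34 genes, 30 rose from BFU-E to CFU-E, 13 rose from CFU-E to ERY-I, 1 rose and 12 fell from ERY-I to ERY-II and 0 were called from ERY-II to ERY-III, where 29 had an unadjusted p under 0.05 and all 34 had a log2 change above 0. Of 22 histone chaperones and assembly factors, 8 rose and 1 fell, 8 rose and 4 fell, and 5 rose and 9 fell in the steps up to ERY-II. None was called from ERY-II to ERY-III, where edgeR called only 0.185% of all genes.

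The replacement variants named here differed in the gate of their highest mean. H2afx, with its stem-loop, was highest in ERY-III, with group means of 250, 444, 882, 887, 1686, 526, 103 and 12 CPM from BFU-E to ERY-VI. It rose from CFU-E to ERY-I by 1.38 ± 0.28 (adjusted p = 0.0016), and changed from ERY-III to ERY-IV by -1.19 ± 0.23 (0.0083) and from ERY-IV to ERY-V by -1.48 ± 0.24 (0.0028). H3f3a, which encodes the variant H3.3, averaged 273 CPM in ERY-III, 126 in ERY-V and 85.2 in ERY-VI, where the summed clustered H3 genes were at 2945 CPM in ERY-III and 19.3 in ERY-VI. H2afz, encoding H2A.Z, was highest in CFU-E at 356 CPM and stood at 109 in ERY-III, and H1f0, the linker histone known from resting cells, went from 54.8 CPM in BFU-E to 9.97 in ERY-III.

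In WT libraries from the knockout series, whose gates are partly merged, the histone sum rose over the first 4 gates and was lower in the last. Along the 5 gates the histone sum was 9468, 13849, 47642, 60806 and 15994 CPM. From BFU-E to CFU-E 54 of 57 genes rose (70.5% of all genes changed, 34.5% rose), with a median log2 change of 0.55. From CFU-E to ERY-I-II all 58 tested rose (81.8% and 39.9%), with a median of 2.25. From there to ERY-III-VI all 58 rose again (73.4% and 35.3%), with a median of 1.07 against -0.07 over all genes. That step depended on the scaling. By library totals 48 rose and 2 fell, where 14.3% of all genes rose, with a median of 0.36 against -0.78 over all genes, and 6 of the 58 had the opposite sign. Hist1h1a, for example, ran from 2617 to 2626 CPM in ERY-I-II and from 2377 to 2445 in ERY-III-VI. The sum rose 1.28-fold. From ERY-III-VI to ERY-V-VI 53 of 58 fell and none rose (31.2% changed, 12.9% fell), with a median of -0.85.

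Among single genes Hist3h2ba again had the widest range. It rose by 3.52 ± 0.26 from BFU-E to CFU-E (adjusted p = 7.1e-23) and by 4.72 ± 0.07 to ERY-I-II (1.2e-39), and its ERY-III-VI mean was 284-fold its BFU-E mean, against a median of 6.34-fold over 57 genes. Hist1h1c rose by 2.66 ± 0.02 from CFU-E to ERY-I-II (3.7e-50) and by 1.41 ± 0.02 to ERY-III-VI (3.9e-37). Into ERY-V-VI, Hist1h4d changed by -0.98 ± 0.03 (1.1e-11) and Hist1h1d by -0.91 ± 0.03 (2.8e-11). Hist2h2be changed by 0.38 ± 0.19 (0.15), which was -0.77 by library totals. Hist1h2bc held 3.70% of H2B counts in WT ERY-V-VI, against 19.3% in ERY-V and 60.2% in ERY-VI of the stage series. Libraries of WT ERY-V-VI all held Y-linked transcripts, those of ERY-VI all Xist and those of ERY-V either. Series and library set are therefore mixed in this difference.

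Glul, the gene that the GS-KO label was taken to name, was lower in the GS-KO libraries of every gate. In BFU-E its mean was 122 ± 2.91 CPM in WT and 98.8 ± 2.41 in GS-KO (SD, n = 3 each). In the 4 later gates the WT means were 86.04, 110.1, 159 and 254 CPM and the GS-KO means 36.01, 14.9, 19.2 and 23.3. The WT and GS-KO libraries did not overlap in any gate. The GS-KO libraries also held far more neutrophil marker RNA. The sum of 9 neutrophil markers was 7142, 4406, 6292, 10029 and 13550 CPM in GS-KO and 33.8, 28.5, 113, 257 and 643 in WT, from BFU-E to ERY-V-VI, and all 9 genes were higher in every gate. Summed macrophage markers ran from 244 to 898 CPM in the GS-KO groups and from 4.70 to 85.8 in the WT groups. The part of these cells in the histone results was not tested.

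**Figure D4:**
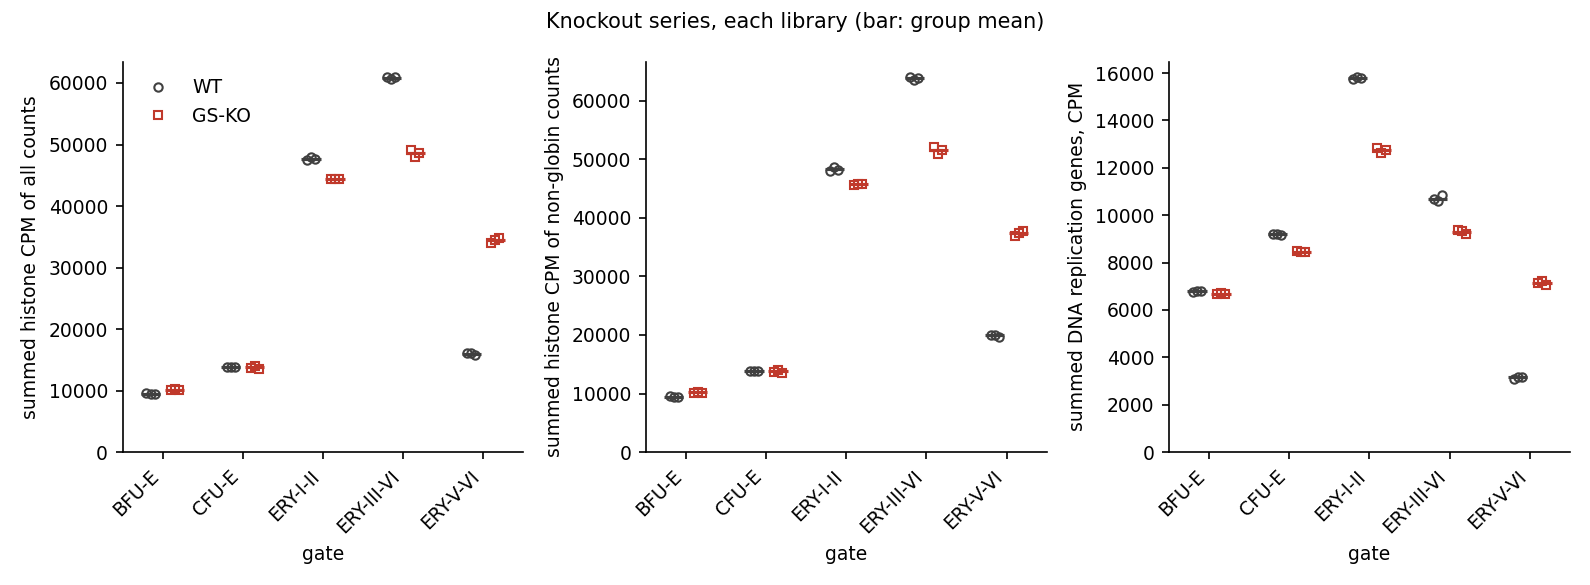
Summed histone CPM of all counts (left), summed histone CPM of non-globin counts (middle) and summed DNA replication gene CPM (right) in each WT (circle) and GS-KO (square) library by gate; bars are group means of 3. GS-KO is below WT in ERY-III-VI (48603 against 60806 CPM) and above it in ERY-V-VI (34433 against 15994), on the scale of all counts and on that of non-globin counts.

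In BFU-E 21 of 56 histone genes were higher in GS-KO and none lower (24% of all genes changed, 15.4% higher), with a small median log2 change of 0.12 against -0.01 over all genes. Hist1h1c had 934, 970 and 948 CPM in WT and 1134, 1074 and 1143 in GS-KO, without overlap, a log2 change of 0.25 ± 0.03 (adjusted p = 1.1e-11). Hist2h4 had 64.8, 67.3 and 68.7 CPM in WT and 89.9, 104 and 94.3 in GS-KO (0.53 ± 0.06, 1.8e-09). Hist1h3g rose by 0.31 ± 0.08 (0.0015) and Hist1h2ab by 0.30 ± 0.07 (0.00057). The largest change was that of Hist3h2ba, chosen after its values were seen because it lies under 5 CPM. It had 1.27, 0.848 and 0.816 CPM in WT and 4.78, 5.25 and 6.43 in GS-KO (2.52 ± 0.35, 4.4e-08). The globin share of the same libraries was 0.00125% in WT and 0.0788% in GS-KO.

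In CFU-E and ERY-I-II changes went both ways and were small. In CFU-E 12 of 57 genes were higher and 10 lower (29.4% of all genes changed, 17.9% higher and 11.5% lower), and the sums overlapped. In CPM, 24 genes had no overlap, against 39.8% of all genes. Of the H1 genes 0 were higher and 3 lower, and of the H2B genes 5 were higher and 2 lower. Hist1h2an, whose values are uncertain because of shared sequence, had 172, 189 and 190 CPM in WT and 147, 140 and 147 in GS-KO (-0.35 ± 0.04, adjusted p = 1.8e-08). Hist1h1b changed by -0.18 ± 0.02 (1.1e-06), Hist1h4b by -0.19 ± 0.03 (1.3e-05) and the pseudogene Hist3h2bb-ps by -0.72 ± 0.18 (0.0020). Hist1h2ab rose by 0.41 ± 0.07 (4.2e-05), and Hist1h3h by 0.47 ± 0.14 (0.0082) and Hist1h4n by 1.21 ± 0.24 (0.00017), both of them near-identical copies whose values are uncertain.

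In ERY-I-II 12 of 58 genes were higher and 12 lower (40.4% of all genes changed, 22.9% higher and 17.5% lower). The split depended on the scaling. By library totals 1 was higher and 32 lower, where 32.1% of all genes were lower, with a median log2 change of -0.10 against -0.13 over all genes, and the histone sum was 47642 CPM in WT and 44383 in GS-KO. With TMM, H1 gave 3 higher and 1 lower, and H4 gave 1 higher and 5 lower. Hist1h1c had 5466, 5362 and 5296 CPM in WT and 5592, 5631 and 5578 in GS-KO (0.18 ± 0.01, adjusted p = 6.5e-18), and Hist1h1a changed by -0.16 ± 0.02 (1.9e-12). Hist1h2an, whose values are uncertain because of shared sequence, had 747, 745 and 767 CPM in WT and 555, 542 and 539 in GS-KO (-0.35 ± 0.03, 1.9e-19). Hist3h2bb-ps, with 61.1, 60.7 and 55.8 CPM in WT, had 23.9, 27.4 and 33.0 in GS-KO (-0.95 ± 0.10, 2.4e-12). Both genes were thus lower in GS-KO in every library of this gate. Hist1h4j changed by -0.20 ± 0.05 (0.00064), while Hist2h4 rose by 0.16 ± 0.03 (1.1e-06) with overlapping CPM.

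In ERY-III-VI nearly every histone gene was lower in GS-KO. Of 58 tested, 57 were lower and none higher (55.9% of all genes changed, 24.5% lower and 31.4% higher), and the 1 not called was Hist1h2aa. The median log2 change was -0.50 against 0.05 over all genes, and all 6 H1, 13 of 14 H2A, 16 of 16 H2B, 10 of 10 H3 and 12 of 12 H4 genes were called. Hist1h1c had 8857, 8587 and 8613 CPM in WT and 6854, 6618 and 6676 in GS-KO (-0.53 ± 0.02, adjusted p = 4.9e-31). Hist1h4d had 4014, 3911 and 3892 CPM in WT and 3124, 3084 and 3035 in GS-KO. In neither gene did the groups overlap.

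The largest changes in ERY-III-VI lay outside the main genes. Hist3h2ba had 279, 270 and 285 CPM in WT and 178, 165 and 146 in GS-KO (-0.92 ± 0.05, adjusted p = 2.4e-23). Hist3h2bb-ps had 47.8, 54.6 and 57.7 CPM in WT and 28.1, 30.4 and 31.1 in GS-KO (-0.99 ± 0.11, 6.8e-12). Both lie in the Hist3 cluster. The largest among H2A, H3 and H4 genes of at least 5 CPM were Hist1h2ah at -0.70 ± 0.08 (3.3e-10), Hist2h3b at -0.61 ± 0.04 (3.2e-21) and Hist1h4i at -0.58 ± 0.06 (1.7e-13). Among the genes that work with them, 27 of 34 DNA replication genes were lower, 17 of 22 chaperones were lower and 0 higher, and 10 of 19 transcription and processing genes were lower and 3 higher. Slbp changed by -0.39 ± 0.03 (2.5e-15). Of 9 replacement variants 7 were lower, H2afx by -0.56 ± 0.03 (4.3e-25), and 1 was higher, H2afy, which encodes macroH2A (2.42 ± 0.11, 5.9e-27). H2afy averaged 14.8 CPM in WT and 89.2 in GS-KO, in the same libraries in which neutrophil markers summed to 257 and 10029 CPM.

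In ERY-V-VI the direction depended on the scaling. With TMM, 21 of 57 genes were lower and none higher (42.9% of all genes changed, 20.5% lower), with a median of -0.14 against 0.15 over all genes. By library totals 53 were higher and 0 lower, where 76.7% of all genes were higher, with a median of 1.16 against 1.44 over all genes. The histone median lay below that of all genes on both scales. Because scaling shifts all genes nearly alike, this is not a separate check. Hist1h1c had 2801, 2922 and 2741 CPM in WT and 4946, 5063 and 4993 in GS-KO. Its log2 change was -0.47 ± 0.03 with TMM (adjusted p = 4.1e-10) and 0.83 by library totals. Hist1h4d had 912, 913 and 866 CPM in WT and 2142, 2162 and 2196 in GS-KO, above WT in every library. In CPM 54 of the 57 genes had no overlap, against 84.5% of all genes. Hist2h2be, with 18.2, 17.6 and 18.2 CPM in WT and 23.4, 18.2 and 18.5 in GS-KO, changed by -1.15 ± 0.26 (0.0020) with TMM and by 0.15 by library totals. The same reversal held for Hist1h3c (-0.54 ± 0.08, 6.7e-05, and 0.75 by library totals) and Hist1h4j (-0.63 ± 0.11, 0.00030, and 0.66).

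Other RNA shifted in the same ERY-V-VI libraries. Globin took 19.7% of counts in WT and 7.76% in GS-KO, and 11 of 13 erythroid markers were lower and 1 higher in GS-KO with TMM. As CPM of non-globin counts, the histone sum was 19913 in WT and 37331 in GS-KO. Summed DNA replication genes were at 3151 CPM in WT and 7149 in GS-KO, moving the same way as the histone sum in CPM, while 6 of 34 were lower with TMM. Hist1h1c made up 42.5% of H1 counts in WT and 37.1% in GS-KO, a share that does not depend on scaling between libraries. H1 made up 41.5% of histone counts in WT and 39.1% in GS-KO.

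**Figure D5:**
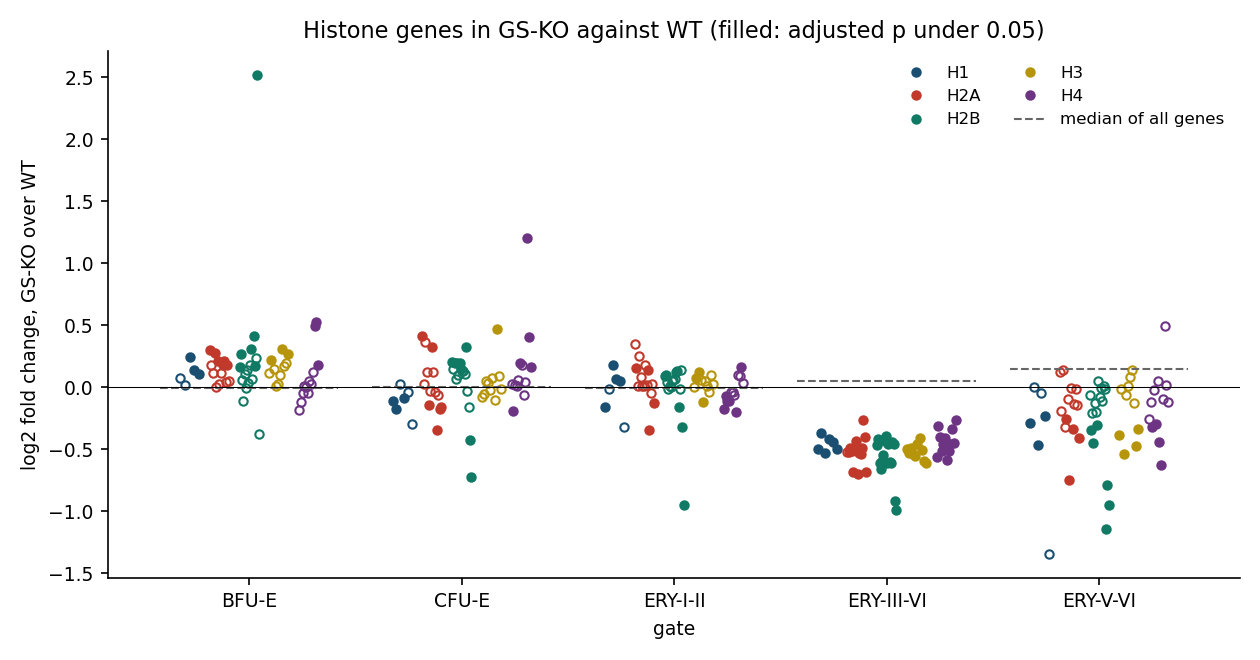
Log2 fold change of each tested histone gene in GS-KO over WT (vertical axis, TMM scaling) by gate, coloured by class, with filled points for an adjusted p under 0.05 and a dashed line at the median of all genes. The points are filled for 57 of 58 genes in ERY-III-VI, all below the line at 0.05; in ERY-V-VI 21 are filled, all below 0, a direction that turns by library totals.

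The genotype effect was also tested for a difference between gates, as an interaction across all 30 libraries. It was called for 54 of 58 histone genes, 93.1%, where 61.2% of 12051 genes were called. The 4 not called were Hist2h2ab, Hist1h1t, Hist3h2bb-ps and Hist1h2aa. Hist3h2bb-ps had its lower GS-KO values in CFU-E, ERY-I-II and ERY-III-VI alike, with log2 changes of -0.72, -0.95 and -0.99. For Hist1h1c, which was called, the changes were 0.25 in BFU-E, 0.18 in ERY-I-II and -0.53 in ERY-III-VI.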

How the data were processed

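Gene counts were deposited by the authors as a table for the stage series and another for the knockout series. Per the submitters' processing notes, STAR 2.5.2b, HTSeq and the mm10 genome were used; annotation, strand and multi-mapping settings are not stated there or in the labels. Per the labels' protocols, libraries came from a stranded total RNA kit. From the deposited counts, CPM of library totals, coding lengths (GENCODE vM21) and log2 changes were computed. edgeR 4.0.16 (R 4.3.3; filterByExpr with a minimum count of 10 and total of 15, TMM, quasi-likelihood F test) fitted each of 16 comparisons on its own libraries and adjusted p-values over all genes tested. Alternatives used library totals, DESeq2 1.42.0 and fewer libraries. Replicate numbers were taken to pair libraries where every correlation of deviations was over 0.1, in ERY-I against CFU-E (lowest 0.48), ERY-III against ERY-II (0.52) and ERY-IV against ERY-III (0.33). In the same order 3 of 5, 4 of 4 and 3 of 4 libraries correlated best with their own number. In CFU-E and ERY-I the replicate number also follows the library set, so number and set cannot be told apart there. The members and lists were chosen with earlier results of these data known. The genes named are all H1 genes, the 3 with the highest mean CPM in each other class, the called gene of at least 5 CPM with the largest change per class and direction, and leading genes of the lists; others are said to be chosen later. On simulated data with 7574 genes, the ERY-III against ERY-II test found 39% of log2 changes of 1 and 78% of 2. Of its calls 7.14% were false. ERY-V against ERY-IV found 3% and 36%, with 2.5% of calls false. GS-KO against WT in ERY-III-VI found 83% and 93%, with 6.88% false.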

Additional observations from a re-analysis of the deposited data

Results flagged for a closer look

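Among 168 combinations of a gate of 4 to 10 libraries with a histone sum or gene, 6 had a library standing far from the others of its gate, where chance sets apart about 5%. ERY-I replicate 6 had a summed H4 level of 3449 CPM where the other 6 libraries had 4609 to 4868, and 504 CPM of Hist1h2bb, an H2B gene, where the others had 687 to 764. ERY-I replicate 7 had 14.3 CPM of Hist1h1t against 5.08 to 7.22, and 1848 CPM of the H2A gene Hist2h2ac against 1204 to 1443. ERY-II replicate 4 had 149 CPM of Hist1h3b against 216 to 222. ERY-VI replicate 1 had 1.18 CPM of Hist1h3b where the other 3 libraries had 0. The GS-KO effect differed between gates for 54 of 58 histone genes by the interaction test in edgeR.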

How the results depend on the processing

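With all groups of a series in 1 fit, the counts of called histone genes were 14 for CFU-E against BFU-E, 26 for ERY-I against CFU-E, 16 for ERY-II against ERY-I, 0 for ERY-III against ERY-II, 0 for ERY-IV against ERY-III, 56 for ERY-V against ERY-IV and 40 for ERY-VI against ERY-V, and 12, 11 and 41 for GS-KO in BFU-E, ERY-I-II and ERY-V-VI. DESeq2 gave 51, 49 and 21 for CFU-E against BFU-E, ERY-III against ERY-II and ERY-VI against ERY-V, and 13 for GS-KO in CFU-E. Library totals gave 22, 0 and 40 for ERY-II against ERY-I, ERY-III against ERY-II and ERY-VI against ERY-V, and 53 for GS-KO in ERY-V-VI. In GS-KO ERY-I-II they gave 1 higher and 32 lower, and in WT ERY-III-VI against ERY-I-II 48 higher and 2 lower. RLE size factors gave 0 for ERY-III against ERY-II. The cause was not tested.

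With the replicate as a block, 55 were called for ERY-III against ERY-II, where the numbers pair the libraries, and 55 for CFU-E against BFU-E, where they share only a number (2 of 3 libraries correlated best with their own). No other count moved over 1.5 times under the block. Libraries with Y-linked transcripts alone gave 55 for CFU-E against BFU-E, and Xist libraries alone 0 for ERY-VI against ERY-V. In alternatives chosen after seeing the data, summed triplicates gave 0, 21 and 0 for CFU-E against BFU-E, ERY-I against CFU-E and ERY-VI against ERY-V, and genes of at least 5 CPM gave 21 for ERY-III against ERY-II.

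Leaving out 1 library gave 12 to 47 for CFU-E against BFU-E, 34 to 50 for ERY-I against CFU-E, 26 to 43 for ERY-II against ERY-I, 0 to 0 for ERY-III against ERY-II, 22 to 43 for ERY-IV against ERY-III, 26 to 42 for ERY-V against ERY-IV and 6 to 14 for ERY-VI against ERY-V. For GS-KO it gave 17 to 24, 18 to 30, 20 to 23, 55 to 57 and 14 to 23 from BFU-E to ERY-V-VI, and 54 to 56 for the interaction. Directions turned by library totals for Hist1h2bn (-0.16) and Hist1h4i (-0.17) in ERY-II against ERY-I, Hist2h2be in ERY-IV against ERY-III (-0.29) and in WT ERY-V-VI (-0.77), and for Hist1h1c (0.83), Hist2h2be (0.15), Hist1h3c (0.75) and Hist1h4j (0.66) in GS-KO ERY-V-VI, and without ERY-III replicate 4 for Hist1h2bc (0.021). The ERY-VI libraries held 1630863 to 3396874 counts.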

Other observations

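Hist2h2ab, an H2A gene of the Hist2 cluster chosen after its values were seen, rose least of the 57 genes. Along the 8 gates its group means were 49, 43.2, 55.4, 39.8, 77.04, 17.99, 3.33 and 0 CPM. H3f3b, the other gene for H3.3, did not have the late maximum of H3f3a, with group means of 291, 416, 390, 165, 257, 151, 47.3 and 8.26 CPM from BFU-E to ERY-VI. H3f3a averaged 48.5 CPM in BFU-E and 231 in ERY-II.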
